A study of Mus musculus with 18 samples.

Results

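The mitochondrially encoded genes were taken as every gene of the deposited count table whose name starts with mt-, which gave 37 of 55487 genes. By the type written in that table, 13 were protein-coding, 2 were ribosomal RNAs and 22 were transfer RNAs. A read count in at least 1 of 18 libraries was found for 33 of the 37, and 18 passed the filter on low counts and were tested (9 protein-coding genes, both rRNAs and 7 tRNAs). The filter left 15996 of all genes.

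The mitochondrial genome is a small circle that is transcribed from both strands as long precursors, which are cut into mRNAs, rRNAs and tRNAs, often at the tRNAs that lie between the other genes. Its proteins are core subunits of respiratory complexes I, III and IV and of the ATP synthase (complex V). All other subunits, the ribosomal proteins and the factors that copy, transcribe and process this genome are encoded in the nucleus. The nuclear genome also carries copies of mitochondrial sequence, and a read that fits both places cannot be assigned by sequence alone.

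The RNA came from BV2, a mouse line of immortalized microglia, in 2 versions labelled NC and BAK1-KD (KD below). Each version, called a line below, was sampled untreated (control, 0 h) and after 12 h or 24 h of oxyhemoglobin, the oxygen-carrying protein of blood, at a labelled dose of 10 mM, a unit that is uncertain because the value is high for a protein. There were 3 libraries in each of the 6 groups and 18 in all, none of them untreated at 12 h or 24 h, so that time in culture and treatment cannot be told apart. NC and KD are not spelled out in the labels, which also leave unsaid how the lines were made, whether either is a clone and whether the 3 libraries of a group were grown apart. The p-values therefore speak of the spread among libraries, which may be technical.

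Library totals ran from 4361313 to 6008810 counts, of which the mitochondrially encoded genes took 0.605 to 2.37% and a single other gene, CT010467.2, took 12.9 to 25.3%. Bak1, the gene the KD label names, had 6, 13 and 6 counts over the 3 NC groups in order of time and 13, 10 and 16 over the 3 KD groups, too few to be tested, so it does not check the labels. All 12 microglia and macrophage markers had counts (562 to 992 in summed CPM, counts scaled to the size of the library). Among erythroid markers Alas2 was counted, while Hbb-bs, Hbb-bt (beta globin), Hba-a1 and Hba-a2 (alpha globin) were at 0. Of 4 neuron markers only Map2 was counted, with 1 count. All levels are relative to the other RNA of a library, so less mitochondrial RNA and more of other RNA cannot be told apart. In bulk RNA, a change in every cell and a change in a part of the cells cannot be told apart either.

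On chromosome 1 of the GRCm38 build, chr1:24611535-24616197 on the minus strand, GENCODE M21 annotates 7 pseudogenes that follow the order of mt-Co1 to mt-Nd4 over 4663 bases. Gm28661 (a copy of mt-Co2), Gm10925 (mt-Atp6), Gm28437 (mt-Co3), Gm10222 (mt-Nd4l) and Gm28439 (the first 876 of 1378 bases of mt-Nd4) had no difference from the mitochondrial transcript over their aligned bases. Gm28438 differed from mt-Nd3 at 1 base, T3C, counted from the first base of mt-Nd3. Gm29216 matched the last 492 bases of mt-Co1 with 6 differences, all between T1056A and A1066T. The starts of these last 2 pairs are shown from GENCODE M21 transcripts, with the differing bases in capitals, because within the aligned stretch of a pair the differing bases are the ones that set its members apart. The part of mt-Co1 before its last 492 bases has no counterpart in Gm29216. The mt-Nd3 stretch is chrM:9459-9518 on the plus strand, that of Gm28438 is chr1:24613060-24613119 on the minus strand, that of mt-Co1 is chrM:6381-6433 on the plus strand and that of Gm29216 is chr1:24616145-24616197 on the minus strand.
mt-Nd3: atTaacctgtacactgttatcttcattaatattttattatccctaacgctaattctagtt
Gm28438: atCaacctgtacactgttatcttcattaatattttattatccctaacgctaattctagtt
mt-Co1: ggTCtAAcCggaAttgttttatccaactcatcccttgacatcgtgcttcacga
Gm29216: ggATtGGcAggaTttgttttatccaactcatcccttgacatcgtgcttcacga

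The tRNAs with most counts are shown whole from the same source, with the anticodon in capitals, because they lie on both strands and 3 of them are neighbours. On the plus strand, mt-Th (chrM:11546-11612, histidine), mt-Ts2 (chrM:11613-11671, serine) and mt-Tl2 (chrM:11671-11741, leucine) stand in a row between mt-Nd4 and mt-Nd5. On the minus strand lie mt-Tc (chrM:5192-5257, cysteine) and mt-Tp (chrM:15356-15422, proline).
mt-Th: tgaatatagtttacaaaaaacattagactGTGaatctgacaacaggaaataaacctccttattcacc
mt-Ts2: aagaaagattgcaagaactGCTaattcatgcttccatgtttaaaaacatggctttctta
mt-Tl2: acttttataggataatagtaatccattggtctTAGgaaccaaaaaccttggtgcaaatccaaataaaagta
mt-Tc: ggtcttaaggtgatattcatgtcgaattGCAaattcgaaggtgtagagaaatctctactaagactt
mt-Tp: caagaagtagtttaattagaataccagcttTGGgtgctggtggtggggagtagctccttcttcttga

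Levels per length, as the deposited TPM (counts per length, scaled to the same sum in each library), spread widely among the members. The median TPM over 18 libraries was 10317 for mt-Co1, the catalytic subunit of complex IV, and 1263 for mt-Nd6, 1148 for mt-Nd5, 506 for mt-Nd1, 242 for mt-Nd4 and 199 for mt-Nd2, all subunits of complex I. It was 588 for mt-Cytb, the mitochondrially encoded subunit of complex III. The other complex IV subunits stood far lower, at 19.9 for mt-Co3 and 9.98 for mt-Co2. Lowest were the complex I subunits mt-Nd4l (2.75) and mt-Nd3 (1.95) and the complex V subunits mt-Atp6 (1.92) and mt-Atp8, which had 2 counts in all 18 libraries and a median of 0. Within this order the ranges over libraries of mt-Nd6 (428 to 2337) and mt-Nd5 (426 to 2383) overlapped almost fully, as did those of mt-Nd4 (101 to 639) and mt-Nd2 (73.0 to 611), and those of mt-Nd4l, mt-Nd3 and mt-Atp6. Every library of mt-Co1 (5288 to 18329) lay above every library of the other members. In raw counts, mt-Co1 made up 61.2 to 74.2% of all mitochondrially encoded counts.

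The 5 members of low level other than mt-Atp8 were those with a full-length or nearly full-length copy on chromosome 1. Of all 100-base windows of a gene, the share also found in an annotated nuclear transcript was 99.8% for mt-Co3, 99.5% for mt-Co2, 99.5% for mt-Atp6, 98.5% for mt-Nd4l and 97.6% for mt-Nd3. It was 60.8% for mt-Nd4, 30.8% for mt-Co1, 3.19% for mt-Nd2 and 0% for mt-Nd1, mt-Nd5, mt-Nd6, mt-Cytb, mt-Atp8 and both rRNAs. Windows of 50 bases gave 62.2% for mt-Nd4, 51.1% for mt-Co1 (in Gm29216, Gm13340 and Gm11512), 8.19% for mt-Nd2, 7.61% for mt-Nd5 and 1.04% for mt-Rnr2. At both window sizes mt-Nd1, mt-Nd6, mt-Cytb, mt-Rnr1 and mt-Atp8 had 0%. For mt-Atp8 this says little, since the stretch of 233 bases between Gm10925 and Gm28661 (chr1:24614652-24614884), where its copy would lie, holds no annotated transcript. The handling of reads that fit several places was not given in the sources used here, and the part of shared sequence in these levels was not tested.

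**Figure D1:**
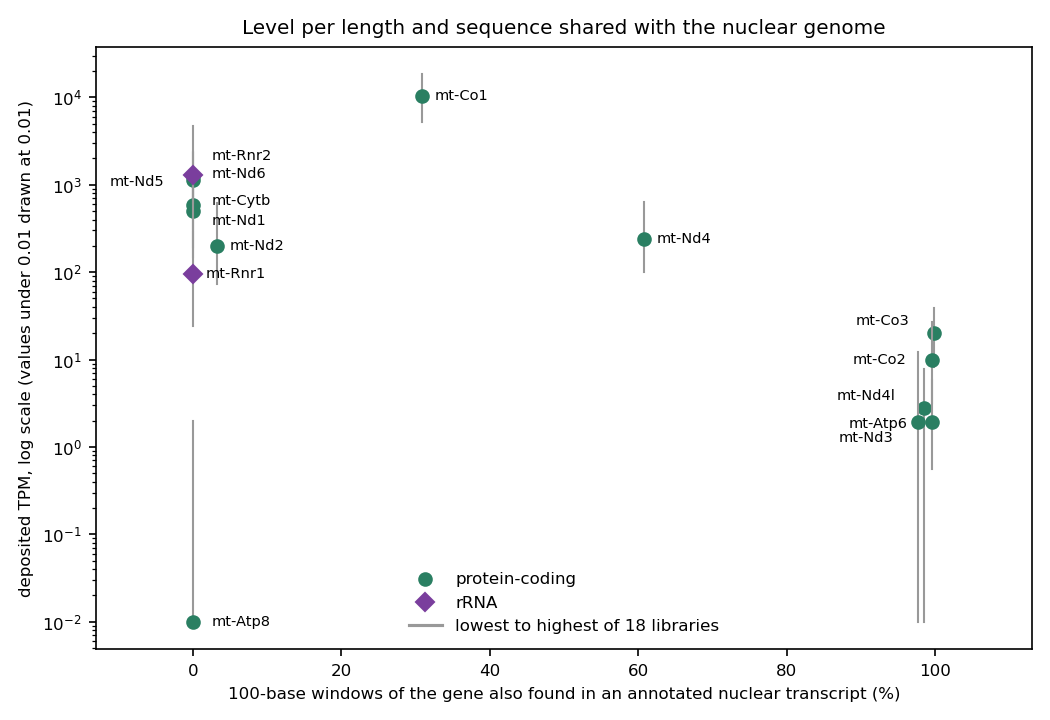
Level per length and sequence shared with annotated nuclear transcripts. The x axis gives the share of a gene's 100-base windows found in a nuclear transcript of GENCODE M21 (%) and the y axis the deposited TPM on a log scale, with points at the median and lines from the lowest to the highest of 18 libraries, and values under 0.01 drawn at 0.01. The 5 genes above 97% sit between medians of 1.92 and 19.9 TPM, while mt-Co1, at 30.8%, has a median of 10317.

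For some pairs the pseudogene carried more counts than the mitochondrial gene. Over 18 libraries Gm28438 had 3553 counts against 59 for mt-Nd3, which is 98.4% of the pair, and Gm10222 had 737 against 44 for mt-Nd4l, which is 94.4%. For mt-Nd3 this held in each library, from 96.2 to 100%. In 3 other pairs the counts of both members stood closer, with 1115 counts for Gm28437 and 823 for mt-Co3, 106 for Gm10925 and 83 for mt-Atp6, and 230 for Gm28661 and 376 for mt-Co2. Gm29216 had 176 counts against 849543 for mt-Co1, and Gm28439 had 83 against 20633 for mt-Nd4.

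At 12 h of oxyhemoglobin the NC line had lower CPM of the mitochondrial protein-coding genes than its control. The complex I subunits mt-Nd5, mt-Nd1 and mt-Nd6 and the complex IV subunit mt-Co3 fell, 4 of the 9 tested, and none rose. Over all 15996 genes 5.55% were called lower, with a threshold of 0.05 on the adjusted p of edgeR's quasi-likelihood test. The log2 fold changes of the 9 ranged from -1.25 to -0.68 with a median of -1.03, against -0.01 over all genes tested. Neither rRNA and none of the 7 tRNAs passed.

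The subunit mt-Nd5, part of the proton-pumping arm of complex I, had 1294, 1496 and 1103 CPM in the NC control libraries and 509, 676 and 454 at 12 h, where CPM are scaled by TMM factors. The groups did not overlap, and the log2 fold change was -1.25 ± 0.24 (SE, n = 3 against 3, adjusted p = 0.000838 with edgeR). mt-Nd1, also of the membrane arm, had 236, 280 and 196 CPM in control and 86.0, 125 and 105 at 12 h, again without overlap, a change of -1.17 ± 0.34 (adjusted p = 0.029 with edgeR). The gene mt-Nd6, the only protein-coding member on the minus strand, had 321, 383 and 348 CPM and then 183, 202 and 130 (-1.03 ± 0.26, adjusted p = 0.0107 with edgeR). It overlaps mt-Nd5 by 14 bases on the opposite strand. The strand setting of the counting is unknown, so reads in that overlap cannot be told apart. If strand was ignored, plus-strand reads anywhere in the 519 bases of mt-Nd6 would also be counted on it. Which strand the mt-Nd6 counts came from was not tested. mt-Co3 had 6.68, 10.4 and 8.78 CPM and then 3.83, 3.23 and 4.36 (-1.18 ± 0.33, adjusted p = 0.0193 with edgeR). These rest on 32 to 63 counts per library in control and 17 to 22 at 12 h. Its copy Gm28437 has no difference from it over their aligned bases, so which gene these reads came from was not tested.

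The genes that did not pass had similar values. mt-Co1 had 9166, 9452 and 7397 CPM in NC control and 4892, 5705 and 5390 at 12 h, groups that did not overlap (-0.70 ± 0.24, adjusted p = 0.0619 with edgeR). The changes of mt-Cytb (-1.03 ± 0.34), mt-Nd4 (-1.02 ± 0.35) and mt-Nd2 (-1.09 ± 0.39) had adjusted p of 0.0545, 0.0644 and 0.0868 with edgeR. For mt-Co2, with 1.35 to 4.12 CPM in these 6 libraries, the groups overlapped (-0.68 ± 0.54). With the library number as a block, 6 protein-coding genes and 2 tRNAs were called lower, mt-Cytb (adjusted p = 0.0436) and mt-Nd4 (adjusted p = 0.0257) among them, where 24.7% of all genes were called in either direction.

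The count of 4 depended on single libraries. It was 2 without NC control library 2 or without library 1 or 3 of NC 12 h, it was 7 without NC 24 h library 1 and 8 without KD control library 2, and it was 1 without the libraries numbered 2. mt-Nd5 kept its call without any 1 of the 18 libraries (highest adjusted p = 0.0105 with edgeR), whereas mt-Nd1 lost it without NC control library 1 or 2 or NC 12 h library 1 or 3 (0.0816 to 0.124), mt-Co3 without NC control library 2 or NC 12 h library 1 or 2 (0.0569 to 0.0885) and mt-Nd6 without NC 12 h library 3 (0.0713).

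**Figure D2:**
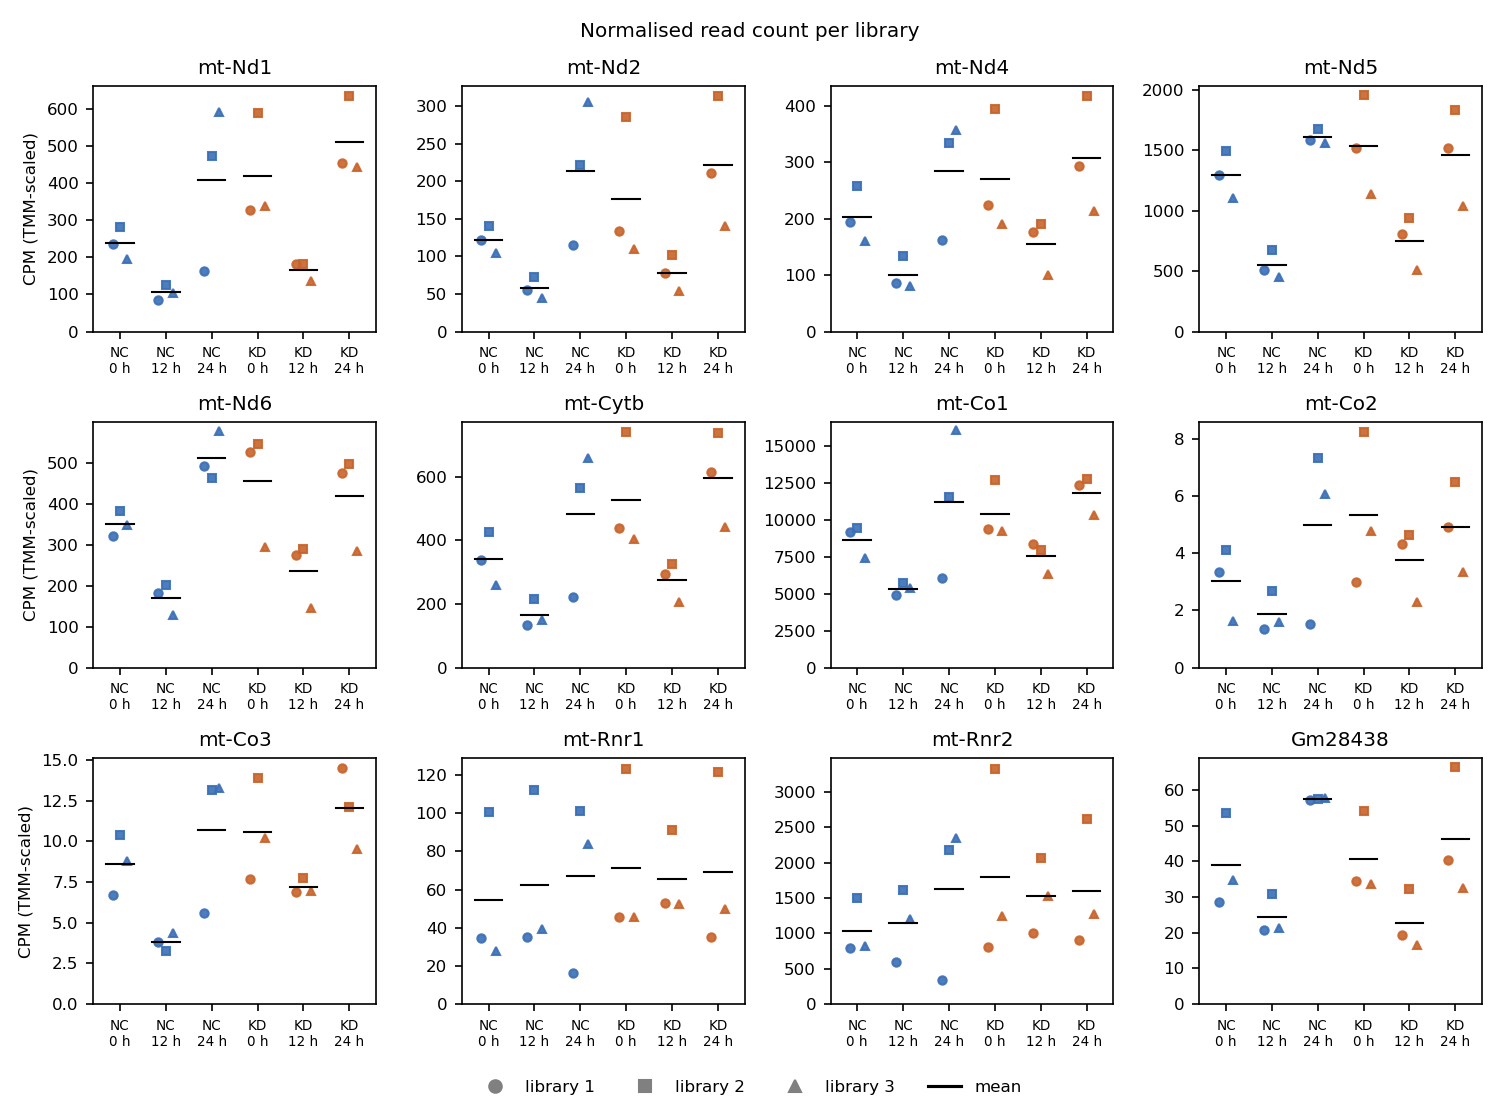
Normalised read counts of the tested protein-coding genes and rRNAs and of the pseudogene Gm28438 in each library. The y axes give CPM scaled by TMM factors and start at 0, the x axes give line and time, points are single libraries with a shape for each library number, and bars are means of 3. The 12 h libraries of mt-Nd5 lie at 454 to 676 CPM in NC and 506 to 935 in KD, below all controls of their line, while library 2 is the highest of its group for mt-Rnr1 in all 6 groups.

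From 12 h to 24 h in the NC line, 8 of the 9 tested protein-coding genes rose, all but mt-Co2, and none fell. Over all genes tested 1.63% were called higher. The 9 log2 fold changes ran from 1.07 to 1.95 with a median of 1.53, against 0.00 over all genes tested. At 24 h the 3 NC libraries held 1584, 1672 and 1561 CPM of mt-Nd5, all above both earlier groups, and the change from 12 h was 1.55 ± 0.24 (adjusted p = 0.000523 with edgeR).

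The other genes spread more at 24 h, with NC 24 h library 1 low for most of them. mt-Nd1 had 163 CPM in that library and 471 and 591 in the others (1.95 ± 0.35 from 12 h, adjusted p = 0.00328 with edgeR), and mt-Co1 had 6043 against 11553 and 16059 (1.07 ± 0.24, adjusted p = 0.0162 with edgeR). mt-Nd6 was even over the 3 libraries, at 493, 464 and 577 CPM (1.58 ± 0.27, adjusted p = 0.00145 with edgeR). The changes of mt-Nd2 (1.90 ± 0.40), mt-Nd4 (1.50 ± 0.35), mt-Cytb (1.53 ± 0.34) and mt-Co3 (1.50 ± 0.33) had adjusted p between 0.012 and 0.0257 with edgeR. mt-Co2 had 1.52, 7.34 and 6.08 CPM at 24 h, overlapping the 12 h group (1.41 ± 0.52, adjusted p = 0.183 with edgeR, 0.0193 with the block).

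The count of members past the threshold was 8, and it was 3 without library 2 or 3 of NC 24 h or library 1 of NC 12 h, and 4 without library 3 of NC 12 h. It was 10 without NC 24 h library 1 and 4 without the libraries numbered 2. With the block it was 12, 9 protein-coding genes and 3 tRNAs, where 11.5% of all genes were called in either direction. The calls of mt-Nd5, mt-Nd1 and mt-Nd6 stood without any 1 of the 18 libraries (highest adjusted p = 0.00993, 0.0311 and 0.019 with edgeR), and those of mt-Nd2, mt-Co1, mt-Co3 and mt-Cytb were each lost without 4 libraries and that of mt-Nd4 without 5 (0.0501 to 0.155), in every case including NC 12 h library 1 and NC 24 h libraries 2 and 3.

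In the KD line the 12 h libraries were also lower than control. mt-Nd1, mt-Nd5, mt-Nd6 and mt-Nd2 fell, all of complex I and 4 of the 9 tested. The counts on the tRNA genes mt-Th and mt-Ts2 fell too, and no member rose. Over all genes tested 8.06% were called lower. The 9 protein-coding changes ran from -1.33 to -0.46 with a median of -0.94, against 0.00 over all genes.

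mt-Nd1 had 327, 588 and 339 CPM in KD control and 183, 182 and 136 at 12 h (-1.33 ± 0.34, adjusted p = 0.0105 with edgeR). mt-Nd5 had 1517, 1955 and 1133 CPM and then 807, 935 and 506 (-1.03 ± 0.24, adjusted p = 0.00339 with edgeR). The libraries of both genes were apart, and in both library 2 was the highest in control. mt-Nd6 had 527, 545 and 295 CPM in control and 275, 291 and 147 at 12 h, close to each other at 1 library of each group (-0.94 ± 0.26, adjusted p = 0.0154 with edgeR). mt-Nd2, another membrane subunit of complex I, had 133, 285 and 110 CPM and then 78.0, 101 and 53.4 (-1.18 ± 0.39, adjusted p = 0.0476 with edgeR). The complex IV gene mt-Co1, at 9356, 12733 and 9220 CPM and then 8400, 7995 and 6375, was lower without passing (-0.46 ± 0.24, adjusted p = 0.23 with edgeR), as was mt-Co3 (-0.56 ± 0.31, adjusted p = 0.247 with edgeR).

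The KD count of 6 at 12 h was 1 without KD control library 2 or KD 12 h library 3, 2 without KD control library 1, 3 without KD 12 h library 1 and 3 without the libraries numbered 2. mt-Nd5 kept its call without any 1 library (highest adjusted p = 0.0319 with edgeR). mt-Nd1 lost it without KD control library 2 (0.0671) or KD 12 h library 3 (0.0538), and mt-Nd6 without KD control library 1 or 2 or KD 12 h library 3 (0.0699 to 0.0926). The call of mt-Nd2 was lost in 12 of the 18 fits without 1 library, NC libraries included (0.0525 to 0.288), so it stood at the threshold.

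From 12 h to 24 h in the KD line mt-Nd1, mt-Nd2 and mt-Nd5 rose, 3 of the 9, and over all genes tested 2.81% were called higher. The 9 changes ran from 0.39 to 1.61 with a median of 0.96, against -0.01 over all genes. mt-Nd1 stood at 453, 634 and 443 CPM at 24 h (1.61 ± 0.34, adjusted p = 0.0083 with edgeR), mt-Nd2 at 211, 313 and 140 (1.51 ± 0.39, adjusted p = 0.0345 with edgeR) and mt-Nd5 at 1516, 1834 and 1034 (0.96 ± 0.24, adjusted p = 0.0179 with edgeR). In each of the 3 genes the 24 h libraries lay above those of 12 h without overlap. With the block 5 protein-coding genes rose, mt-Nd6 (0.83, adjusted p = 0.0484) and mt-Co3 (0.78, adjusted p = 0.0457) in addition, and 3 tRNAs, where 12.3% of all genes were called in either direction.

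This count of 3 was 0 without KD 24 h library 2, 1 without KD 12 h library 3 or KD 24 h library 1, 5 without KD 24 h library 3 and 1 without the libraries numbered 2. mt-Nd1 lost its call without KD 24 h library 2 (0.0556), mt-Nd5 without KD 12 h library 3 or KD 24 h library 1 or 2 (0.0744 to 0.135), and mt-Nd2 in 9 of 18 fits (0.0553 to 0.195). Each of these 3 calls therefore rested on at least 1 library.

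**Figure D3:**
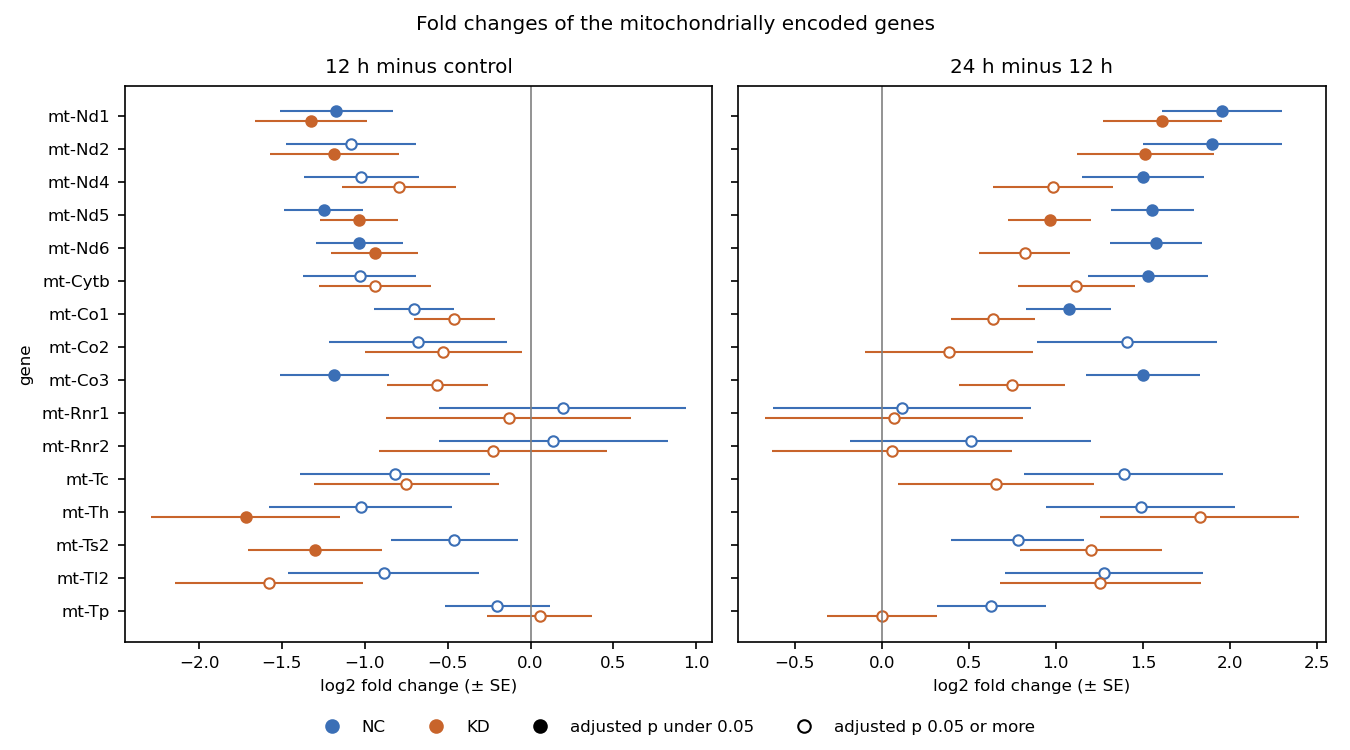
Log2 fold changes of the 18 tested members other than mt-Ty and mt-Tn, between 12 h and control (left) and 24 h and 12 h (right). Points are edgeR estimates for the NC and KD lines, bars are ± 1 SE, and filled points have an adjusted p under 0.05. All protein-coding changes lie below 0 on the left and above 0 on the right, while those of mt-Rnr1 and mt-Rnr2 lie within 1 SE of 0.

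Between 24 h and control no member passed in either line with edgeR, where 7.57% of all genes were called in NC and 9.59% in KD. At an unadjusted p under 0.05 with edgeR there were 3 of the 18 members in NC (mt-Nd1, mt-Nd2 and mt-Nd6, all higher) and 0 in KD. At that unadjusted threshold 3049 of all 15996 genes were found in NC and 3476 in KD. DESeq2 called 0 members in both. The median of the 9 protein-coding changes was 0.50 in NC and 0.18 in KD. For mt-Nd5 the change was 0.31 in NC (95% interval -0.18 to 0.79) and -0.07 in KD (-0.56 to 0.42). With the block, mt-Nd5 was higher in NC (0.33, adjusted p = 0.0248), where 18.9% of all genes were called, and without NC 24 h library 1 the NC count was 1. The 3 comparisons of a line share its libraries, so they are not independent of each other.

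The lines were compared at each time, a comparison that would show a difference of the KD-labelled line from NC. No member passed at control, 12 h or 24 h with edgeR, where 2.06, 1.6 and 1.39% of all genes were called. At an unadjusted p under 0.05 with edgeR there were 1, 4 and 0 of the 18 members, all higher in KD. At that unadjusted threshold 1936, 2055 and 1954 of all 15996 genes were found. DESeq2 called 0 members at each time. At 12 h all 9 protein-coding genes had positive KD minus NC values (median 0.63), with mt-Co3 at 6.91, 7.76 and 6.94 CPM in KD and 3.83, 3.23 and 4.36 in NC (0.92 ± 0.34, adjusted p = 0.215 with edgeR). At that time the block gave 3 calls, mt-Co3 (adjusted p = 0.0447), mt-Nd5 (0.44, adjusted p = 0.00655) and mt-Ty, where 10.9% of all genes were called in either direction. mt-Ty, the tyrosine tRNA, had 0 counts in all 3 NC 12 h libraries and 3, 9 and 4 in KD.

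Whether the lines changed differently over time was tested as an interaction. No member passed for 12 h against control, 24 h against control or 24 h against 12 h with edgeR, where 0.075, 0.0313 and 0.00625% of all genes were called. At an unadjusted p under 0.05 with edgeR there were 0, 0 and 1 members (mt-Ty), and 904, 740 and 626 of all 15996 genes. DESeq2 called 0 members in each. For mt-Nd5 the rise from 12 h to 24 h was smaller in KD than in NC by a value that did not pass (-0.59, 95% interval -1.28 to 0.10, adjusted p = 0.999 with edgeR) and that passed with the block (-0.62, adjusted p = 0.0414), where 0.7% of all genes were called. The pairing of libraries by number was not met in all comparisons of the lines, so this last value rests on the number alone.

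The rRNAs, the RNA core of the mitochondrial ribosome, varied widely between the libraries of a group. mt-Rnr2, the large rRNA, had 795, 1495 and 818 CPM in NC control, then 599, 1619 and 1201 CPM after 12 h, then 343, 2178 and 2346 CPM after 24 h. In KD the values were 801, 3329 and 1251 CPM in control, then 1006, 2061 and 1535 CPM after 12 h, then 900, 2622 and 1271 CPM after 24 h. The times overlapped in both lines. mt-Rnr1, the small rRNA, ran from 16.2 to 123 CPM over the 18 libraries, also with overlap in every comparison of times within a line.

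Neither rRNA passed in any comparison, and the intervals were wide. For mt-Rnr2 the change from control to 12 h was 0.14 (95% interval -1.35 to 1.63) in NC and -0.23 (-1.72 to 1.26) in KD, and for mt-Rnr1 it was 0.19 (-1.41 to 1.80) and -0.13 (-1.73 to 1.46). These intervals include the changes of most mRNAs, so a difference between the classes was not shown by these tests. The spread lay between libraries of a group. The library numbered 2 had the highest mt-rRNA share of counts in all 6 groups, for example 0.392% against at most 0.126% for the other KD control libraries, and NC 24 h library 1 had the lowest of all, 1356 counts of mt-Rnr2 where its companions had 11569 and 12742. What the library number stands for is not in the labels, and its part in the mRNA values was not tested beyond the fits without these libraries.

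Relative to mt-Co1 in the same library, some members changed more than others, a comparison that does not depend on library scaling. Per 100 counts of mt-Co1, mt-Nd1 had 2.58 to 4.62 counts in the 6 control libraries of both lines and 1.76 to 2.27 in the 6 libraries of 12 h, without overlap. mt-Nd5 had 12.3 to 16.2 in control and 7.93 to 11.9 at 12 h, also without overlap, and 9.72 to 26.2 at 24 h. The highest of these, 26.2, was NC 24 h library 1, which stood apart from the other libraries of its group (14.5 and 9.72). For mt-Cytb, mt-Nd2, mt-Nd4 and mt-Nd6, 4, 4, 3 and 2 of the 6 libraries of 12 h lay below all controls. mt-Co2 and mt-Rnr1 had 0 of 6 below all controls, and mt-Rnr1 had 2 of 6 above them. These ratios are given as values without a test.

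**Figure D4:**
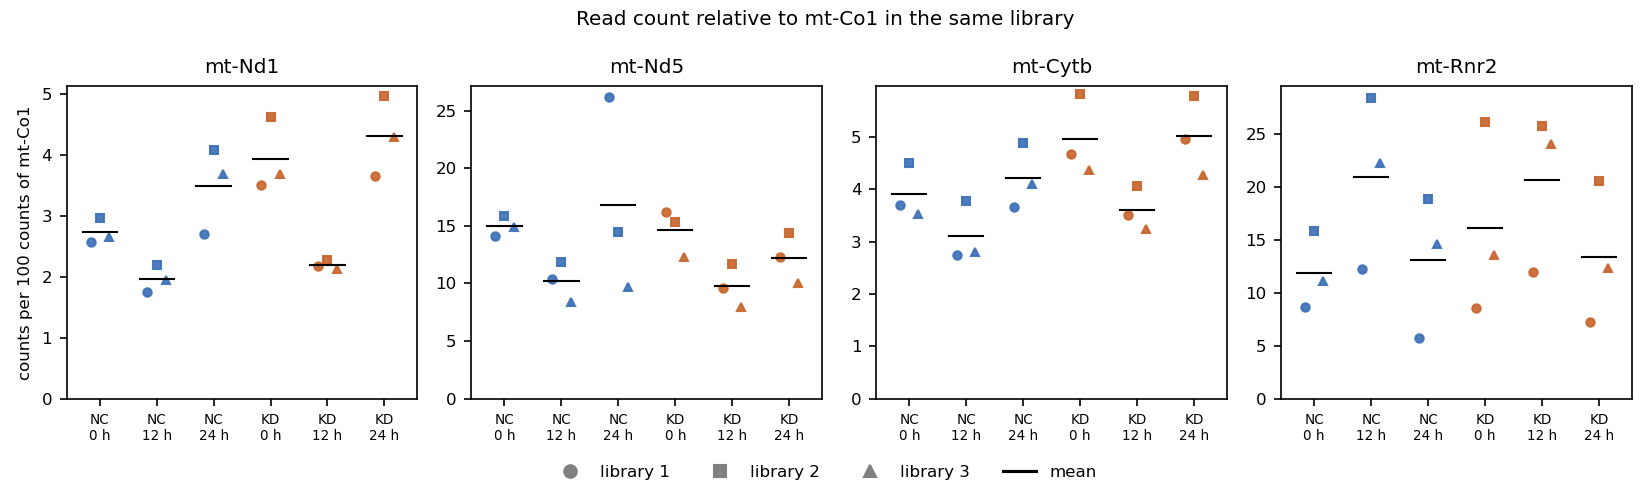
Counts of mt-Nd1, mt-Nd5, mt-Cytb and mt-Rnr2 per 100 counts of mt-Co1 in the same library. The y axes start at 0, the x axes give line and time, points are single libraries with a shape for each library number, and bars are means of 3. All 6 libraries of 12 h lie below all 6 controls for mt-Nd1 (1.76 to 2.27 against 2.58 to 4.62) and mt-Nd5 (7.93 to 11.9 against 12.3 to 16.2), while mt-Rnr2 overlaps.

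Counts on the tRNA genes were few, 116 to 622 per library. No count was found for mt-Tf, mt-Ts1, mt-Td and mt-Tk, and 11 more had 1 to 50 counts over all 18 libraries and were not tested. The 7 tested were mt-Tc (1863 counts in all), mt-Tp (953), mt-Ts2 (895), mt-Tl2 (595), mt-Th (498), mt-Ty (102) and mt-Tn (87). Per length the order began with mt-Tc, at a median of 509 TPM with a range of 110 to 1351, and mt-Tp, at 297 with a range of 140 to 405, which overlap. A length of 59 to 71 bases makes these TPM coarse. These genes lie next to others with few or no bases between. A read counted on one may come from a mature tRNA, an uncut precursor or a neighbouring RNA, and which of these was not tested.

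The 3 neighbours before mt-Nd5 shown above were low in the KD 12 h libraries. mt-Th had 6.62, 9.30 and 3.75 CPM in KD control and 1.73, 3.51 and 0.630 at 12 h (-1.72 ± 0.57, adjusted p = 0.0434 with edgeR), from 3 to 19 counts in the 12 h libraries. mt-Ts2 had 12.4, 12.7 and 9.15 CPM and then 3.67, 6.28 and 3.78, without overlap (-1.30 ± 0.40, adjusted p = 0.0296 with edgeR). mt-Tl2 had 8.75, 12.8 and 6.87 CPM and then 2.38, 5.36 and 1.68 (-1.58 ± 0.57, adjusted p = 0.0662 with edgeR, 0.000153 with the block, where 28.8% of all genes were called). In NC the same 3 had values of -1.03 ± 0.55, -0.46 ± 0.38 and -0.88 ± 0.58 at 12 h, none of which passed. With the block mt-Tl2 passed in NC too (-0.91, adjusted p = 0.048), where 24.7% of all genes were called. None of these tRNAs passed the test of a difference in change between the lines. The call of mt-Th was lost in 12 of 18 fits without 1 library (0.0502 to 0.177) and that of mt-Ts2 without KD control library 1 or 2 or KD 12 h library 1 or 3 (0.0817 to 0.113).

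The other tested tRNAs gave no call. mt-Tc on the minus strand had 21.5, 17.0 and 19.0 CPM in NC control, then 9.46, 11.3 and 11.7 CPM after 12 h, then 5.07, 23.7 and 55.4 CPM after 24 h. The last group held both the lowest and the highest library of all 18. mt-Tp ranged from 5.63 to 15.1 CPM with no separation in the comparisons of 12 h with control. From 12 h to 24 h no tRNA passed in either line. With the block, which called 11.5% of all genes in NC and 12.3% in KD, 3 tRNAs did in each. In NC these were mt-Th, mt-Tl2 and mt-Ty and in KD mt-Th, mt-Tl2 and mt-Ts2.

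The copies on chromosome 1 were tested in the same way, 6 of the 7, all but Gm28439. From 12 h to 24 h Gm28438, the copy of mt-Nd3, rose in both lines. It had 28.6, 53.6 and 34.7 CPM in NC control, then 20.7, 30.7 and 21.4 CPM after 12 h, then 57.2, 57.4 and 57.8 CPM after 24 h (1.24 ± 0.29 from 12 h, adjusted p = 0.0207 with edgeR). In KD it had 34.6, 54.0 and 33.7 CPM, then 19.4, 32.3 and 16.6, then 40.3, 66.3 and 32.4 (1.02 ± 0.29 from 12 h, adjusted p = 0.049 with edgeR). The difference of 12 h from control did not pass in NC (-0.68 ± 0.29, adjusted p = 0.145 with edgeR, 0.00111 with the block) or KD (-0.84 ± 0.29, adjusted p = 0.0536, 4.51e-05 with the block). In KD it passed with DESeq2 (adjusted p = 0.0475), and without the filter it passed in both lines (0.0326 in NC and 0.00339 in KD with edgeR). The changes without the filter were nearly the same (-0.69 in NC and -0.84 in KD), so only the adjusted p was lower there. Why it was lower was not tested.

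These calls were close to the threshold. The NC call of Gm28438 was lost without library 1 or 3 of NC 12 h or any 1 library of NC 24 h (0.062 to 0.135), and the KD call in 13 of 18 fits (0.0525 to 0.347), with RLE factors (0.0555) and without CT010467.2 (0.0597). No other copy passed with edgeR on all 18 libraries, with the filter and without the block. Without the libraries numbered 2, 2 copies were called lower at 12 h against control in KD, Gm28438 among them (0.00558). With the block, Gm28437 and Gm28661 were also called lower at 12 h against control in NC and Gm10222 in KD, which made 3 and 2 of the 6 copies. The block called 24.7 and 28.8% of all genes there, in either direction. For 24 h against 12 h in NC, Gm28437, Gm28661 and Gm10925 were also called higher with the block, 4 of 6 in all, where 11.5% of all genes were called. The block further called Gm28438 higher at 24 h against control in NC (18.9% of all genes) and Gm28661 higher in KD than in NC at 12 h (10.9%). The median over the 6 tested copies was -0.95 and 1.40 in NC for 12 h against control and 24 h against 12 h, and -0.63 and 0.59 in KD. Since Gm28438 differs from mt-Nd3 at 1 base, which gene its reads came from was not tested.

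The counts of mt-Nd3 itself were 4, 5 and 3 in NC control, then 1, 1 and 2 after 12 h, then 5, 12 and 11 after 24 h. In KD they were 1, 5 and 2, then 0 in all 3, then 5, 1 and 1. mt-Atp6, a subunit of the proton channel of complex V, had 4, 4 and 3 counts, then 1, 2 and 3, then 3, 6 and 10 in NC, and 4, 7 and 8, then 1, 1 and 2, then 8, 10 and 6 in KD. mt-Nd4l had at most 6 counts in any library. At this depth no test was made for these genes.

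The nuclear genes of the same system were read from lists in the same fits, beside the share of all genes tested that was called in either direction. That share was 12.2% in NC and 16% in KD for 12 h against control, 2.76 and 4.28% for 24 h against 12 h, and as given above for 24 h against control and between the lines. Of 71 nuclear-encoded subunits of complexes I, III, IV and V 61 were tested, and across the 6 comparisons of times edgeR without the block made 3 calls, all lower and all of complex I. Ndufb2 fell at 12 h in NC (-0.76 ± 0.21, adjusted p = 0.0208 with edgeR), Ndufb8 at 24 h against control in NC (-0.72 ± 0.21, adjusted p = 0.0331) and Ndufa10 at 24 h against control in KD (-0.86 ± 0.25, adjusted p = 0.0308). The median of the 61 was 0.07 in NC and -0.04 in KD for 12 h against control, where the mitochondrially encoded subunits had -1.03 and -0.94. For 24 h against 12 h it was -0.08 and -0.04, where the encoded subunits had 1.53 and 0.96. With the block 4 subunits were called higher and 1 lower for 12 h against control in NC, where 24.7% of all genes were called. It called 2 higher and 2 lower for 24 h against control in each line (18.9% of all genes in NC and 21.5% in KD), and 1 lower for 24 h against 12 h in each (11.5 and 12.3%). Those calls were spread over complexes I, III, IV and V. Between the lines edgeR called 0 subunits at each time (3, 2 and 6 at an unadjusted p under 0.05 at control, 12 h and 24 h, and 0 with DESeq2). At that unadjusted threshold 1936, 2055 and 1954 of all 15996 genes were found. With the block 1 subunit was higher and 4 were lower in KD at control, 3 were lower at 12 h and 0 were called at 24 h. The block called 9.35, 10.9 and 9% of all genes at these times, and the pairing by number was not met at control or 24 h. Without the libraries numbered 2 no subunit was called in the 9 comparisons of times and lines.

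Among 78 proteins of the mitochondrial ribosome (Mrpl and Mrps genes), 72 were tested. For 12 h against control Mrpl52 rose (2.01 ± 0.60, adjusted p = 0.03 with edgeR) and Mrps35 fell in NC (-0.59 ± 0.17, adjusted p = 0.0259), and in KD Mrpl21 (0.96 ± 0.32) and Mrpl51 (0.77 ± 0.25) rose and Mrps5 fell (-0.55 ± 0.18). For 24 h against control Mrpl35 rose in NC and Mrpl51 and Mrpl57 rose in KD. For 24 h against 12 h edgeR called 0 in both lines (3 in NC and 2 in KD at an unadjusted p under 0.05, and 0 with DESeq2). At that unadjusted threshold 2197 of all 15996 genes were found in NC and 2284 in KD. Between the lines Mrpl19 was lower in KD at control (-0.92 ± 0.16, adjusted p = 0.00201 with edgeR), and no other passed without the block. With the block, for 12 h against control, 9 were higher and 1 lower in NC, and 9 were higher and 4 lower in KD, where 24.7 and 28.8% of all genes were called. For 24 h against control the block gave 7 higher and 2 lower in NC and 13 higher in KD (18.9 and 21.5% of all genes). For 24 h against 12 h it gave 2 higher and 2 lower in NC and 1 higher in KD (11.5 and 12.3% of all genes). For KD against NC it gave 3 higher and 4 lower at control, 3 lower at 12 h and 2 lower at 24 h. Over all genes it called 9.35, 10.9 and 9% at these times.

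Of 28 genes for processing, modifying and turning over mitochondrial RNA, 27 were tested, and 3 rose and none fell in each comparison of 12 h or 24 h with control. Over all genes tested 6.69 and 4.66% were called higher at 12 h and 24 h against control in NC, and 7.93 and 5.5% in KD. At 12 h these were Fastkd3 (1.01 ± 0.18 in NC and 0.92 ± 0.18 in KD), Rexo2, a mitochondrial exonuclease of short RNAs (0.85 ± 0.19 and 0.75 ± 0.19), and Trmt10c, a subunit of the enzyme that cuts tRNAs at their 5′ end (0.59 ± 0.15 in both). Adjusted p with edgeR was 0.000439 and 0.000719 for Fastkd3, 0.00401 and 0.00888 for Rexo2, and 0.0118 and 0.00934 for Trmt10c. At 24 h against control the NC calls were again Fastkd3 (0.62), Rexo2 (0.85) and Trmt10c (0.51), and the KD calls were Fastkd3 (0.65), Rexo2 (0.76) and Pde12 (0.53), a poly(A)-removing enzyme. The medians of the 27 stayed between -0.03 and 0.16 in these 4 comparisons. With the block 4 rose in NC and 6 in KD at 12 h, and at 24 h against control 5 rose and 1 fell in NC and 8 rose and 1 fell in KD. Over all genes the block called 24.7% in NC and 28.8% in KD at 12 h, in either direction. At 24 h against control it called 18.9 and 21.5%. For 24 h against 12 h edgeR called 0 in both lines, with or without the block (2 in NC and 0 in KD at an unadjusted p under 0.05, and 0 with DESeq2). At that unadjusted threshold 2197 of all 15996 genes were found in NC and 2284 in KD. Without the libraries numbered 2 the calls on this list were 2 and 3 at 12 h (NC and KD) and 1 in each line at 24 h against control, all higher. Between the lines edgeR without the block and DESeq2 called 0 at each time. At an unadjusted p under 0.05 with edgeR, 1, 2 and 1 were higher and 3, 1 and 2 lower in KD at control, 12 h and 24 h. At that threshold 1936, 2055 and 1954 of all 15996 genes were found in either direction. With the block 1 gene of the list was higher and 3 were lower at control, 2 were higher at 12 h, and 1 was higher and 1 lower at 24 h. The block called 9.35, 10.9 and 9% of all genes at these times.

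Of 18 genes for transcribing and maintaining mitochondrial DNA 17 were tested, and without the block 1 passed, Mterf3, known as a repressor of mitochondrial transcription, which was higher at 12 h in KD (0.70 ± 0.22, adjusted p = 0.0357 with edgeR). Of 8 regulators of mitochondrial biogenesis 7 were tested, and without the block 1 passed, Gabpb1, a subunit of a transcription factor for nuclear mitochondrial genes, which was higher at 24 h against control in NC (0.76 ± 0.21, adjusted p = 0.029 with edgeR). With the block the first list gave 2 lower at 12 h and 1 higher and 2 lower at 24 h against control in NC. In KD it gave 1 higher and 1 lower at 12 h and 2 higher at 24 h against control. Over all genes the block called 24.7 and 18.9% in NC and 28.8 and 21.5% in KD at these times. The first list also gave 2 higher and 1 lower at 24 h against 12 h in KD (12.3% of all genes). Between the lines 2 were lower in KD at 12 h (10.9% of all genes). The regulators gave at most 2 block calls in any comparison. Without the libraries numbered 2 neither list gave a call.

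**Figure D5:**
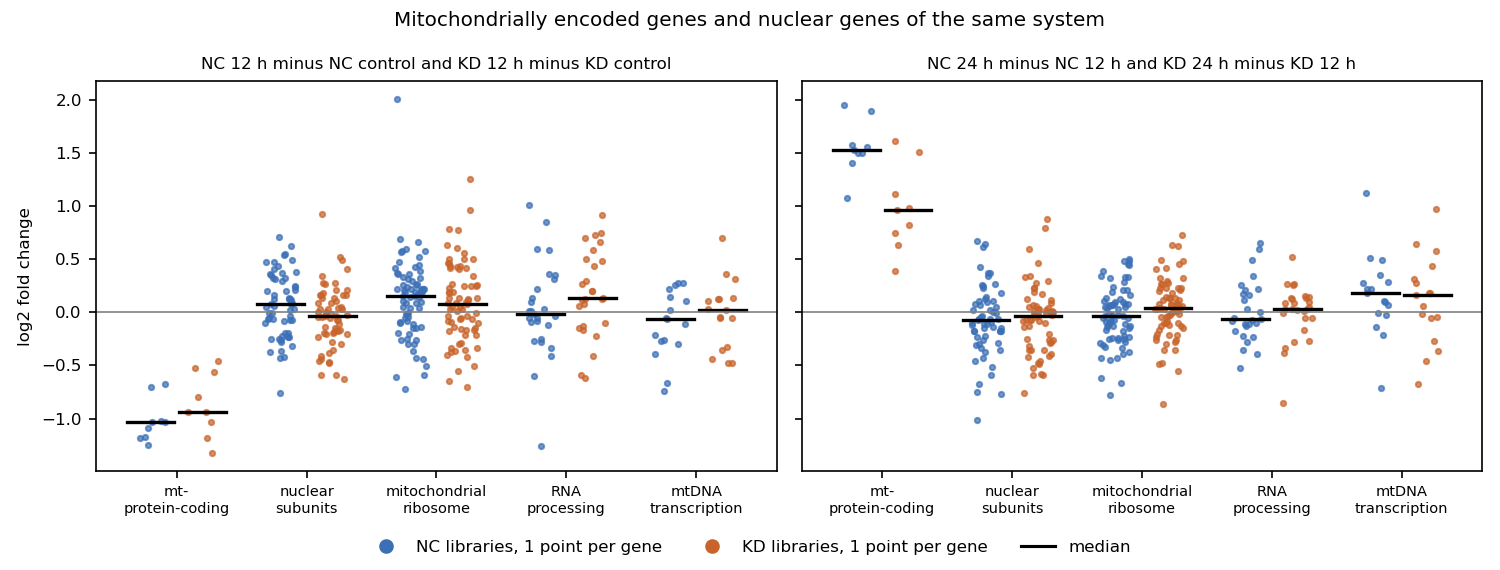
Log2 fold changes of the 9 tested mitochondrially encoded protein-coding genes beside the tested nuclear genes of 4 lists, for 12 h against control (left) and 24 h against 12 h (right). Points are genes, with NC in blue and KD in orange, and bars are medians. The mitochondrially encoded genes have medians of -1.03 (NC) and -0.94 (KD) on the left and 1.53 and 0.96 on the right, and the nuclear subunits have 0.07, -0.04, -0.08 and -0.04.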

How the data were processed

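The submitters' processing notes list HISAT2 2.2.0, featureCounts, bcl2fastq and DESeq2, with GRCm38 as build. The authors deposited whole-number read counts per gene, not normalized, and TPM, which were recomputed from the counts and the gene lengths in the table with a largest difference of 4.89e-05. The strand setting, the handling of reads that fit several places and the annotation release are not given in the sources used here. Groups came from sample titles. No 2 libraries of a group agreed within counting noise (lowest chi-square per degree of freedom 4.50).

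Counts of all genes were fitted with edgeR 4.0.16 (R 4.3.3, limma 3.58.1), with TMM factors, a filterByExpr filter at a count of 10, the 6 group means as coefficients, a spread estimated over all 18 libraries, and Benjamini-Hochberg adjustment over 15996 genes at 0.05. The procedure was tested on simulated data of independent libraries. These had no effect of the library number, so that test cannot speak to such an effect. There were 12 comparisons, the times within each line, the lines at each time and the interactions. The depth of 4361313 to 6008810 counts per library limits genes of few counts, and intervals are of the fitted changes.

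Same-numbered libraries correlated in their deviations from group means above 0.1 in all 3 pairs for the comparisons of times (lowest 0.108) and of the lines at 12 h (lowest 0.2), and not at control (0.0703) or 24 h (0.0946). What a number stands for is not in the labels.

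Positions and sequences came from GENCODE M21 transcripts on GRCm38, and windows of 50 and 100 bases were compared with all nuclear transcripts there. Sequence outside annotated transcripts was not searched.

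All members were named, with tRNAs beyond those tested given by counts. At most 4 genes of each nuclear list with the lowest adjusted p were named per comparison. The members and lists were chosen with earlier results of these data known. Alternatives were RLE factors, no filter, DESeq2 1.42.0, a replicate block, leaving out CT010467.2 and leaving out each library. Leaving out the libraries numbered 2 was chosen after seeing the data. Of the other cell markers, 1 of 4 astrocyte genes (Gfap), 2 of 3 oligodendrocyte genes and 4 of 6 fibroblast and endothelial genes had counts, at most 8.41 summed CPM in any library.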

Additional observations from a re-analysis of the deposited data

How the results depend on the processing

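RLE factors and leaving out CT010467.2 kept every count within 1.5 times and turned no direction, with Gm28438 in KD the only call lost. The counts of mitochondrially encoded genes past the threshold moved under the other choices as follows. Without the filter they were 10 (NC) and 11 (KD) at 12 h against control, 3 in NC at 24 h against control, 10 in KD at 24 h against 12 h, and 3 and 4 between the lines at control and 12 h. DESeq2 gave 7 in NC at 12 h against control and 6 in KD at 24 h against 12 h. The replicate block gave 8 in NC at 12 h, 1 in NC at 24 h against control, 8 in KD at 24 h against 12 h, 3 between the lines at 12 h and 1 in the interaction of 24 h with 12 h. Without the libraries numbered 2 the counts were 1 and 3 at 12 h (NC and KD) and 4 and 1 for 24 h against 12 h, with 2 libraries left per group. The cause of these moves was not tested. The next paragraph gives calls over all genes where they moved by more than 1.5 times. Elsewhere they stayed within 1.5 times of the main fit. Main calls were 1958 (NC) and 2558 (KD) at 12 h against control, 1211 in NC at 24 h against control and 684 in KD at 24 h against 12 h. Without the filter the fit took in all 28940 genes with a count. There mt-Nd2 in NC at 12 h had an adjusted p of 1.14e-06 with edgeR at a change of -1.10.

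Over all genes the block gave 3948, 3023 and 1841 calls for 12 h against control, 24 h against control and 24 h against 12 h in NC, against 1958, 1211 and 441 without it. In KD it gave 4600, 3433 and 1971 against 2558, 1534 and 684. Between the lines it gave 1496, 1737 and 1440 against 330, 256 and 223, and for the interactions 331, 193 and 112 against 12, 5 and 1. Without the libraries numbered 2 the calls were 802 and 276 in NC at 24 h (against control and 12 h), 433 in KD at 24 h against 12 h, 157, 147 and 59 between the lines and 2, 1 and 0 for the interactions. DESeq2 gave 386 between the lines at 24 h and 59, 39 and 2 for the interactions, and no filter gave 46 and 33 for the first 2 of these.

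The rRNA changes turned direction. For KD 12 h against control, leaving out the libraries numbered 2 gave 0.20 for mt-Rnr1 and 0.30 for mt-Rnr2, and for KD 24 h against 12 h it gave -0.30 and -0.22, where the block gave -0.068 and -0.030. Leaving out 1 library gave -0.57 to 0.99 (mt-Rnr1) and -0.22 to 0.49 (mt-Rnr2) for NC 12 h against control, -0.31 to 0.88 for mt-Rnr1 in NC 24 h against 12 h, -0.47 to 0.52 and -0.58 to 0.58 for KD 12 h against control, and -0.65 to 0.39 and -0.52 to 0.34 for KD 24 h against 12 h.

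Leaving out 1 library moved the counts of members to 2 to 8 and 1 to 7 at 12 h against control (NC and KD), 0 to 1 in NC at 24 h against control, and 3 to 10 and 0 to 5 at 24 h against 12 h. Over all genes the ranges were 195 to 479 (NC) and 428 to 726 (KD) at 24 h against 12 h, 213 to 354, 101 to 271 and 41 to 248 between the lines, and 3 to 19, 2 to 10 and 0 to 1 for the interactions. At this depth mt-Nd3, mt-Nd4l, mt-Atp6, mt-Atp8 and 15 tRNAs could not be tested.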
